A study of Rattus norvegicus with 8 samples.

Results

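Cultured sensory neurons that had received the P61S mutant of a human protein were compared with cultures that had received its wild type form, across all genes that the arrays could read. The samples were taken by their titles: all 3 arrays labelled P61S and both arrays labelled wild type, 5 of the 8 arrays of the series. The other 3 arrays carried a double mutant, P61S/R100E, and enter here through the shared estimate of the spread. Every culture was made from dissociated dorsal root ganglia of Wistar rats aged 0 to 5 days, with both sexes pooled, plated at 50000 cells per well. After 2 to 3 days in vitro each received 1 form of the protein at 100 ng/ml for 5 days, in serum-free medium with fluorodeoxyuridine at 87.5 ng/ml, an inhibitor of dividing cells. All 3 groups therefore share the protein, the antimitotic and the serum-free medium, and cultures that received none of the protein are not analysed here. RNA with an integrity number under 8.0 was not used. Nothing in the labels says that the replicates are separate cultures or rats, so a p-value here measures the spread between these samples alone, which may be technical. The labels give no aim for the comparison of P61S with wild type.

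Dorsal root ganglia hold the cell bodies of the sensory neurons of the body. Part of these neurons are nociceptors, which detect damaging heat, acid and chemicals through ion channels, fire through their own sodium channels and release peptides such as substance P. Protein growth factors sustain them through tyrosine kinase receptors, whose signal runs through the ERK kinases to early genes and later to channels and peptides. The cultures also hold satellite glia, Schwann cells, fibroblasts and a few macrophages and endothelial cells.

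Signals are given as log2 of the background-subtracted intensity minus the log2 of the 75th percentile signal on the same array, so 0 is the level of that percentile. A probe was tested when the scanner software had marked it well above background throughout 1 group or more, which left 23585 probes and 12148 genes, each gene read by its brightest probe. The 75th percentile signals of the 5 arrays ran from 3267 to 5176, the share of spots well above background was 78.7% to 88.8%, and saturated spots numbered 0. Precision is limited by how few arrays there are. All tested markers of neurons (6 genes), Schwann cells (4), fibroblasts (4) and macrophages (4) were well above background on all 5 arrays. Among satellite glia markers Kcnj10, a potassium channel, was well above background on 3 arrays, and among endothelial markers the adhesion molecule Pecam1 was so on 4. The neuronal marker Pou4f1 was not tested. The summed log2 signal of the neuronal markers was 6.72 to 6.92 with P61S and 6.80 to 7.06 with wild type, that of the fibroblast markers 6.41 to 6.61 and 6.55 to 6.66. Fewer cells of a type and less RNA per cell cannot be told apart in such mixed cultures. The macrophage markers summed to 1.32 on P61S array 3 and to 0.36 to 0.46 on the other 4, through 1 gene, Cd68, a lysosomal protein. Its log2 signals were -1.21, -1.28 and 0.64 with P61S and -1.37 and -1.22 with wild type, while Csf1r, Aif1 and Ptprc stood at -4.91, -0.20 and -4.66 on P61S array 3, beside -4.92, -0.21 and -4.56 on P61S array 1.

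P61S arrays 1 and 3 differed, at the median over bright probes, by less than duplicate spots of 1 array. On 3366 bright probes with 2 spots, duplicate spots of 1 array differed by a median of 0.050 on P61S array 1 and 0.051 on P61S array 3. Spots of the same probe on those different arrays differed by a median of 0.034. P61S array 2 differed from them by 0.084 and 0.081. The 2 arrays lie in the same slide column, but pairs in the other columns differed by 0.091, 0.113 and 0.138. P61S arrays 1 and 3 were therefore averaged and counted as 1 sample, so that P61S has n = 2 in every mean, SD and test, and wild type has n = 2. Over all tested probes the median absolute difference was 0.05 between P61S arrays 1 and 3, against 0.11 between P61S array 1 and wild type array 1. By the SD of the log2 difference, on which large differences weigh more, the likeness was less close. This SD was 0.33 between P61S arrays 1 and 3, with 430 probes past 2-fold. Between P61S array 1 and wild type array 1 it was 0.29, with 196 probes. Single dim genes differed widely between the averaged arrays, such as Them7 (-8.42 and -3.82) and Eras (-3.35 and -6.85). Whether they hold the same RNA was not tested. With all 8 arrays as separate samples the counts are given beside the first results.

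Wild type array 2 stood apart from the other 4. By the same spot measure P61S differed from wild type array 1 by 0.074 to 0.078, less than P61S array 2 differed from the other P61S arrays, and from wild type array 2 by 0.123 to 0.125. The wild type arrays differed from each other by 0.138. Wild type array 2 also had the lowest 75th percentile signal of the 5 (3267), the largest share of outlier spots (1.98%, against 1.13% to 1.70%) and the largest gap between duplicate spots (0.065). The part of these values in the results was not tested. Results that rest on a wild type array are therefore given against each of them. Both wild type arrays lie in slide column 4 and no P61S array does, so column and protein cannot be told apart.

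**Figure D1:**
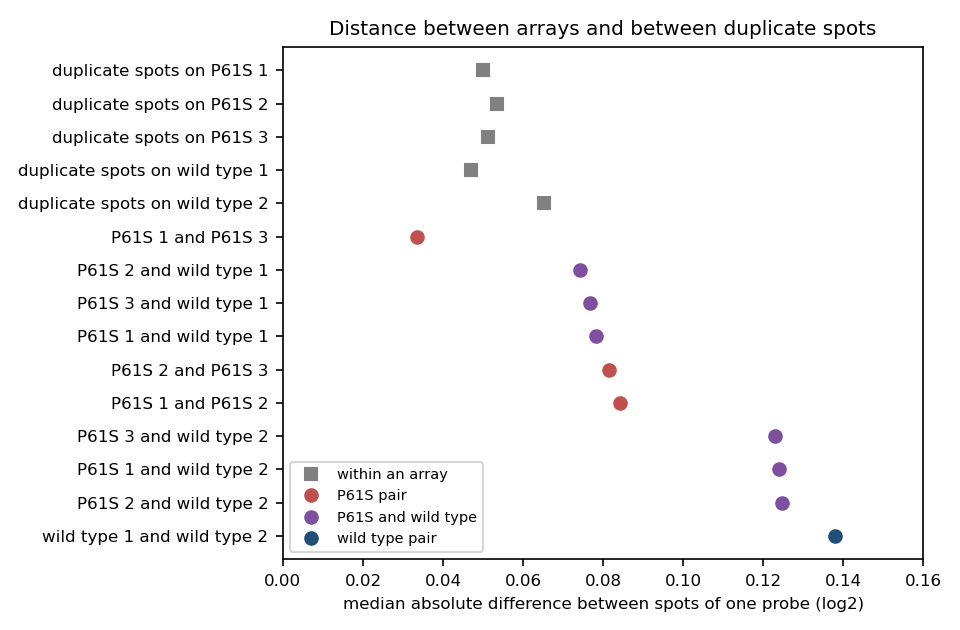
Median absolute log2 difference between spots of 1 probe (x axis, log2 units), for duplicate spots within each of the 5 arrays (squares) and for spots on different arrays (circles, coloured by the groups compared), over 3366 bright probes. P61S arrays 1 and 3 lie at 0.034, below every square, P61S and wild type array 1 at 0.074 to 0.078, and the wild type pair at 0.138.

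Over all genes the signals with P61S followed those with wild type closely. The median log2 difference, P61S minus wild type, was -0.02 and the median absolute difference 0.09. The differences of 97.6% of the genes were under 1.5-fold and those of 84.7% under 1.2-fold, while 71 genes passed 2-fold. No probe passed the test for a difference. At an adjusted p under 0.05 the limma fit called 0 of 23585 (0%), and it gave 259 probes (1.1%) at an unadjusted p under 0.05, of which 141 were higher and 118 lower. With 8 arrays as separate samples limma also called 0 probes, with 489 at an unadjusted p under 0.05 (163 higher, 326 lower). Leaving out wild type array 1, so that wild type array 2 is the sole wild type sample, gave 16 calls (4 higher, 12 lower) and 3213 probes at an unadjusted p under 0.05. With P61S array 2 as the sole P61S sample there were 9 calls, all higher. The share of all tested probes that was higher with P61S was 42.3%, and it was 56.0% when arrays were centred on their median, so the side on which most small differences fall depends on the scaling.

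A p that misses the threshold does not show that values are alike, so each difference was also tested against a margin of 2-fold with a pair of one-sided limma tests. By this equivalence test 19603 of 23585 probes (83.1%) and 10792 of 12148 genes (88.8%) lay within 2-fold at an adjusted p under 0.05. With 8 arrays as separate samples 20271 probes did, and with normexp background correction and quantile normalization 22768, a setting whose offset of 50 is added to every signal and so shrinks the differences of dim probes. With a margin of 1.5-fold 12304 probes did, and with 1.2-fold 0, so likeness closer than 1.2-fold could not be shown for any probe. The 95% confidence interval of the difference lay wholly within 2-fold for 10364 genes (85.3%), and it reached past 2-fold and held 0 for 1734 (14.3%).

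The equivalence calls followed the signal. Probes were divided into 5 equal classes by mean signal. The median absolute difference was 0.24 in the dimmest class and 0.17, 0.11, 0.07 and 0.06 in the following ones. The median standard error fell with it, from 0.34 to 0.14. Equivalence within 2-fold was called for 50.5% of the dimmest probes, then for 79.1%, 91.6% and 96.4%, and for 98.0% of the brightest. The dimmest class held most of the probes without an equivalence call, and at this precision neither likeness nor difference could be shown for those probes.

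**Figure D2:**
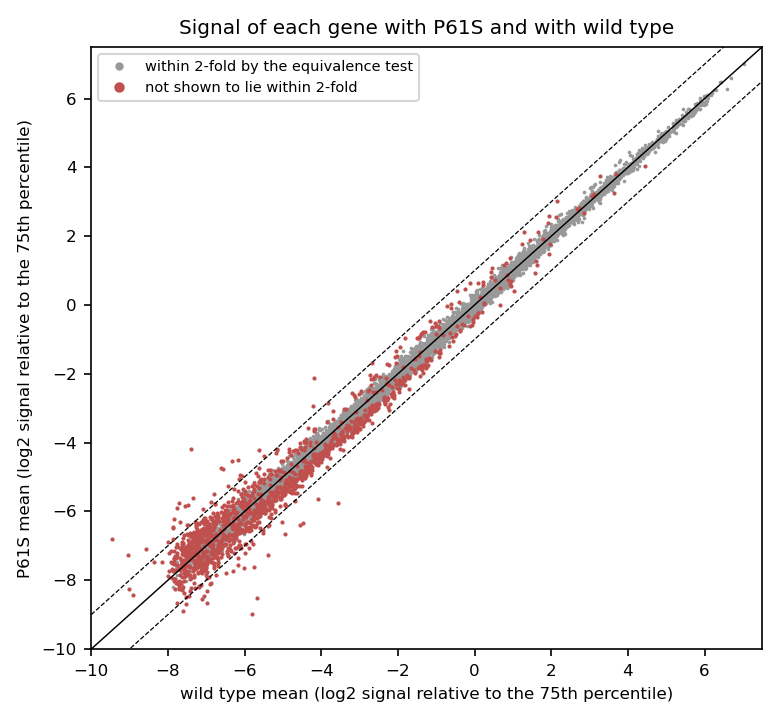
Mean log2 signal of each of 12148 genes with wild type (x axis) and with P61S (y axis), both relative to the array's 75th percentile, with lines of equality (solid) and of a 2-fold difference (dashed). Grey genes (10792) lay within 2-fold by the equivalence test, and the red ones, not shown to do so, gather at low signal.

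The likeness was closest to wild type array 1. Against that array alone the median absolute difference over genes was 0.09 and 103 genes passed 2-fold. Against wild type array 2 the values were 0.17 and 331 genes, and between the wild type arrays 0.21 and 605 genes. In 9394 of 12148 genes (77.3%) the difference between P61S and the wild type mean was smaller than the gap between the wild type arrays. In 7092 (58.4%) it was smaller than the gap between the P61S samples. Means of 2 samples vary less than single samples, so most genes would show the smaller difference even at equal spread. These shares were not tested against that baseline and do not by themselves show likeness. The distances to wild type array 2 depended on signal: the median of P61S minus wild type array 2 was -0.26 in each of the 2 dimmest classes and 0.01 in the brightest. Against wild type array 1 it was 0.21 in the dimmest and 0.00 in the brightest. The 2 arrays thus shifted dim probes in opposite directions, and the wild type mean lay between them.

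As a single measure of distance the SD over all probes of the log2 difference between 2 samples was taken. It was 0.29 between the mean of P61S arrays 1 and 3 and wild type array 1, the smallest of the 6 pairs. It was 0.42 between the P61S samples, 0.41 between P61S array 2 and wild type array 1, and 0.53 in each of the 3 pairs that hold wild type array 2. Samples of different groups were on average 0.44 apart and samples of 1 group 0.48, a difference of -0.04 (two-sided exact permutation test over 6 ways, p = 0.667, where the smallest possible p is 0.333). With so few samples this test could not have passed a threshold of 0.05. With the 5 arrays as separate samples the means were 0.45 between groups and 0.44 within groups, a difference of 0.01. An exact permutation test over 10 ways gave p = 0.8 for it. The sign of the difference therefore depends on whether P61S arrays 1 and 3 are averaged, and neither value shows that the groups lie closer than their replicates.

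**Figure D3:**
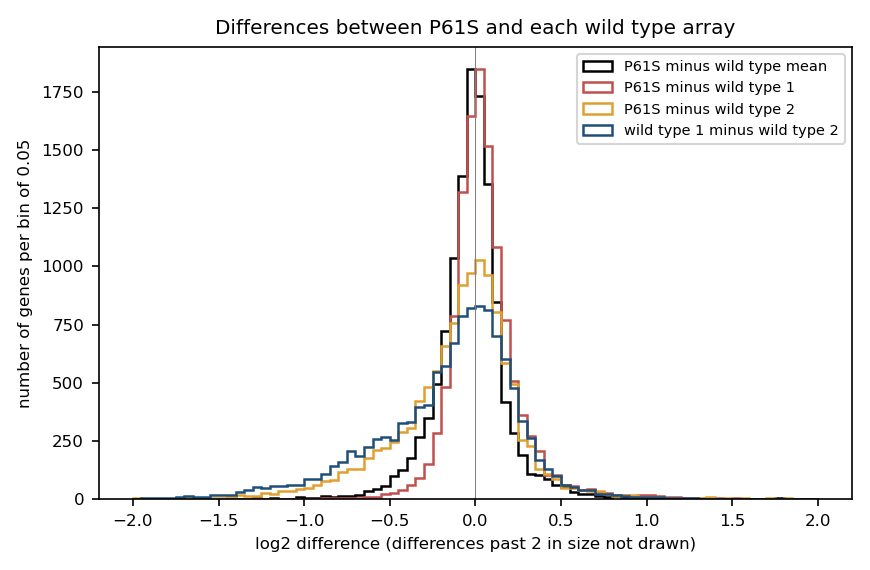
Number of genes (y axis) by log2 difference (x axis, bins of 0.05) for P61S minus the wild type mean, P61S minus each wild type array, and wild type array 1 minus wild type array 2, over 12148 genes. The median absolute differences are 0.09, 0.09, 0.17 and 0.21 in that order, and the curves that hold wild type array 2 have a longer left arm.

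Several genes that give nociceptors their function had nearly the same signal with both proteins, as most genes of the arrays did. A set of 28 genes of sensory neurons, glia and fibroblasts was followed, of which 27 were measured. Of these, 25 lay within 2-fold by the equivalence test, against 88.8% of all genes, and 0 had an unadjusted p under 0.05. Their median absolute difference was 0.09, as over all genes, so the set was not more alike than genes at large. In a separate list of nociceptor channels and receptors the share within 2-fold was 82.8% (24 of 29). Trpv1, the receptor channel for heat and capsaicin, read 0.56, 0.67 and 0.59 on P61S arrays 1 to 3 and 0.53 and 0.73 on the wild type arrays. Its P61S values lay inside the wild type range (0.63 ± 0.07 against 0.63 ± 0.14, SD, n = 2 samples each), and the difference was -0.01 (95% interval -0.33 to 0.32). P2rx3, an ATP-gated channel of nociceptors, read 4.01, 4.41 and 4.10 with P61S and 4.28 and 4.08 with wild type, and its groups overlapped as well (difference 0.05, SE 0.173). Asic3, an acid-sensing channel, differed by 0.11 with a wide interval (-0.63 to 0.86), and its second probe gave -0.09.

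The sodium channels that carry the action potential of nociceptors were likewise close. Scn9a (Nav1.7) read 0.88, 0.88 and 0.77 with P61S and 0.85 and 0.79 with wild type, a difference of 0.03 (SE 0.170). Scn11a (Nav1.9) read 2.49, 2.61 and 2.51 with P61S and 2.51 and 2.72 with wild type, a difference of -0.06 (SE 0.123). Scn10a (Nav1.8) was the member of this group whose arrays did not overlap. It read 3.12, 3.15 and 3.09 with P61S and 3.00 and 2.83 with wild type, a difference of 0.21 (SE 0.121, 95% interval -0.08 to 0.51) that did not pass the test (limma, unadjusted p = 0.128) and lay within 2-fold.

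The peptide genes lay within 2-fold as well. Calca and Calcb, which encode the calcitonin gene-related peptides that dilate vessels, differed by 0.13 (SE 0.172) and 0.07 (SE 0.107). Calcb read 3.90, 3.97 and 3.97 with P61S and 3.91 and 3.87 with wild type. Tac1, the substance P gene, read 4.71, 4.76 and 4.71 with P61S and 4.75 and 5.05 with wild type, so that its difference of -0.17 (SE 0.148) came from wild type array 2. Bdnf, a neurotrophin, read -0.79, -0.71 and -0.67 with P61S and -0.61 and -0.69 with wild type, and the secreted peptide precursor Vgf differed by -0.09 (SE 0.156).

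Receptors and genes of growth factor response were within 2-fold too. Ngfr, the low-affinity neurotrophin receptor, read 3.61, 3.64 and 3.64 with P61S and 3.55 and 3.75 with wild type, a difference of -0.02 (SE 0.127). Gfra3, the artemin co-receptor, differed by -0.03 (SE 0.112) and Ret, the kinase of the GDNF family receptors, by 0.09 (SE 0.226), with other Ret probes at -0.30 and 0.10. The early transcription factor Egr1 read -2.23, -1.91 and -2.27 with P61S and -2.30 and -1.92 with wild type (difference 0.03, SE 0.208). Dusp6, an ERK phosphatase that ERK itself induces, differed by -0.09 (SE 0.168). Of injury genes, the transcription factor Atf3 differed by 0.01 (SE 0.119) and the growth cone protein Gap43 by 0.17 (SE 0.125). The P61S arrays of Gap43 (4.35, 4.50 and 4.25) lay just above both wild type arrays (4.23 and 4.23). Of non-neuronal genes, the glial factor Sox10 differed by 0.06 (SE 0.115) and the collagen gene Col1a1 by -0.07 (SE 0.166).

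Of the 27 genes, those not shown to lie within 2-fold were Trpa1 and Oprm1, both dim. Trpa1, the irritant receptor, read -4.57, -4.18 and -4.52 with P61S and -4.26 and -3.73 with wild type (difference -0.37, 95% interval -1.14 to 0.41). Oprm1, the mu opioid receptor, read -6.05, -5.94 and -5.89 with P61S and -5.86 and -4.89 with wild type (difference -0.58, 95% interval -1.44 to 0.27). In both, wild type array 2 was the high array, while wild type array 1 lay inside the P61S range for Trpa1 and next to it for Oprm1. The other Oprm1 probes gave -0.24 and -0.34 and lay within 2-fold. Bdkrb2, the bradykinin receptor gene, passed the equivalence test narrowly (adjusted p = 0.05 when rounded, limma), with a difference of -0.33 that was 0.04 without wild type array 2.

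**Figure D4:**
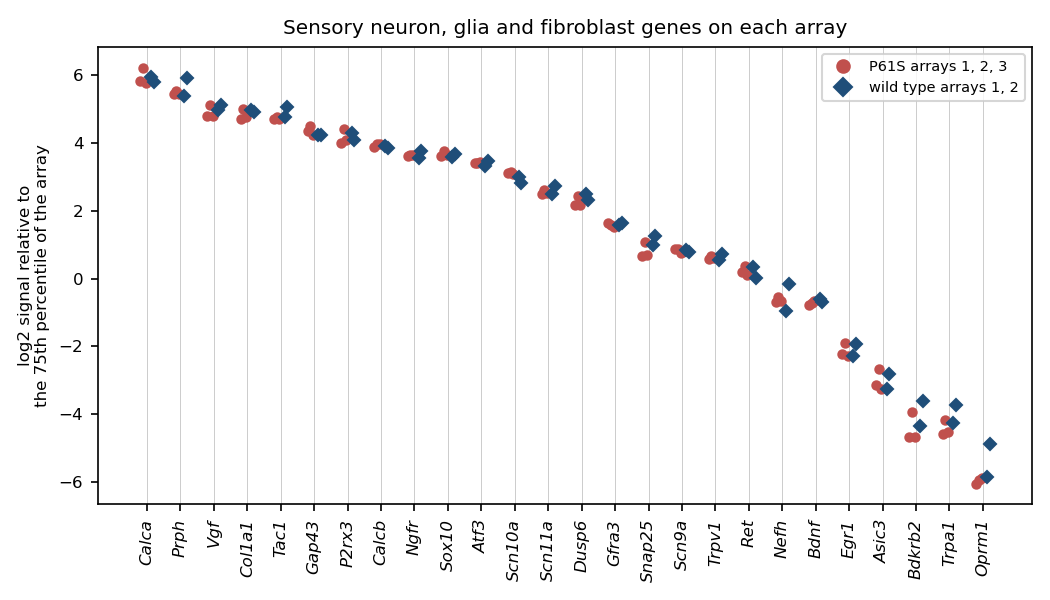
Log2 signal minus that of the array's 75th percentile (y axis) of 26 of the measured genes (x axis, ordered by the wild type mean) on the 3 P61S arrays (circles) and the 2 wild type arrays (diamonds); probes of different genes differ in binding, so levels are not to be compared between genes. The symbols of both groups overlap or lie close for most genes, and they spread most for Bdkrb2, Trpa1 and Oprm1 at the dim end.

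The same was seen for 18 genes that had been picked earlier because the double mutant set them apart on these same arrays. All 18 lay within 2-fold between P61S and wild type, with a median absolute difference of 0.08 and a largest of 0.32. Their choice used contrasts that share these P61S and wild type arrays, so the count is a description. Vip, the gene of vasoactive intestinal peptide, read -0.38, 0.10 and -0.45 with P61S and -0.31 and -0.24 with wild type, against 1.44 ± 0.11 (SD, n = 3) with P61S/R100E. Calb2, which encodes the calcium buffer calretinin, read -0.37, -0.43 and -0.40 with P61S and -0.41 and -0.38 with wild type, against -1.09 ± 0.10 (SD, n = 3) with P61S/R100E. Lrat, which esterifies retinol, read -3.38, -3.24 and -3.38 with P61S and -3.13 and -3.17 with wild type, against -4.49 ± 0.09 (SD, n = 3) with P61S/R100E. Its P61S arrays all lay below the wild type arrays (difference -0.16, SE 0.119), and a second, dim probe gave 0.10 (SE 0.904). The cytokine gene Il24 had the largest difference, 0.32 (SE 0.225). It read -1.40, -0.76 and -1.45 with P61S and -1.46 and -1.37 with wild type, so the difference came from P61S array 2 and was -0.01 without it. Nts, the neurotensin gene, read -2.00, -1.57 and -1.98 with P61S and -2.12 and -2.01 with wild type (difference 0.28, SE 0.188), and the galanin gene Gal differed by 0.20 (SE 0.172). P61S array 2 was the highest of the 5 arrays for Vip, Il24, Nts and Gal, and P61S arrays 1 and 3 were not.

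Across 25 gene lists, 659 distinct genes in all, 589 were tested and 525 of these lay within 2-fold. No member of any list passed the test for a difference (0% of all probes did). The list medians ran from -0.11 to 0.09, beside a median of -0.02 for all genes. Arrays of the 2 groups did not overlap in 8.4% of all genes with P61S higher and in 9.31% with P61S lower, and 0.412% and 0.379% of all genes had an unadjusted p under 0.05 in those directions. The counts of members below are read against these shares.

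Among lists of neuronal function, 23 of 23 tested genes of neurotrophin and GDNF family ligands and receptors lay within 2-fold (median difference -0.03), and the arrays of 1 did not overlap, Gfra2, the neurturin co-receptor, at -0.15. Its other probes gave -0.37 and -0.95 with wide errors (SE 0.438 and 0.726), and wild type array 2 was the high array on both. Of voltage-gated sodium and calcium channels 24 of 25 did (median -0.01) and of sensory neuron transcription factors 16 of 17 (median 0.00). Of nociceptor channels and receptors 24 of 29 did (median -0.02), with 3 genes higher and 5 lower by non-overlapping arrays, Ptger3 and Asic2 being the ends. Of neuropeptides and vesicle cargo 24 of 26 did (median 0.07), with 4 genes higher and 1 lower by non-overlapping arrays. Cpe, the carboxypeptidase that matures peptide hormones, was that lower gene at -0.08 (SE 0.123), and Sst, the somatostatin gene, was the largest of the higher ones at 0.31 (SE 0.384). Voltage-gated potassium channels had the lowest share of these lists, 20 of 27 (median -0.05). Their differences ran from -0.51 to 0.71. Among members whose arrays did not overlap, the ends were the A-type channels Kcnd2, at 0.45 (SE 0.302), and Kcnd3, at -0.51 (SE 0.306). A second Kcnd2 probe gave 0.06.

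Lists of growth factor response were also near 0. Early genes and ERK feedback had a median of -0.08, with 26 of 33 within 2-fold and 1 gene higher and 4 lower by non-overlapping arrays. Spry2, an inhibitor of receptor tyrosine kinase signalling, read -1.64, -1.37 and -1.64 with P61S and -1.22 and -0.99 with wild type (difference -0.40, SE 0.252). It was lower on every P61S array and passed the equivalence test but not the test for a difference. Its relative Spry4 differed by 0.06 (SE 0.118), and by -0.33 (SE 0.269) on a second probe. Axon injury and regeneration genes had a median of 0.00, with 32 of 33 within 2-fold. There Tubb3, the neuronal tubulin, read 3.92, 3.97 and 3.85 with P61S and 4.04 and 4.13 with wild type (difference -0.16, SE 0.108). Of apoptosis and survival genes 25 of 29 lay within 2-fold (median -0.03). Xiap, a caspase inhibitor, read -5.06, -4.89 and -4.92 with P61S and -4.53 and -3.99 with wild type (difference -0.68, SE 0.272, limma unadjusted p = 0.0461), and its second probe gave -0.55, on which wild type array 1 lay among the P61S arrays.

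The lists of cell type markers had medians close to that of all genes. The median difference was -0.05 for pan-neuronal markers (20 of 24 within 2-fold), 0.01 for large-diameter neuron markers (16 of 20), -0.06 for satellite glia markers (18 of 20), -0.02 for Schwann cell genes (21 of 24) and -0.06 for fibroblast and matrix genes (21 of 22). It was 0.05 for macrophage and immune markers (18 of 21) and 0.03 for endothelial and mural markers (10 of 17), the list with the lowest share within 2-fold. Plvap, a protein of endothelial pores, read -5.43, -4.51 and -5.40 with P61S and -5.45 and -5.86 with wild type, so its difference of 0.70 (SE 0.360) rests mostly on P61S array 2. In the fibroblast list Lum, a matrix proteoglycan, read 1.28, 1.25 and 1.27 with P61S and 1.55 and 1.51 with wild type (difference -0.27, SE 0.169). Its groups were tight and apart, yet it did not pass the test (unadjusted p = 0.16). Trem2, a receptor of macrophages, was at 0.27 (SE 0.194).

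Cell cycle genes differed within the P61S group. Their median difference from wild type was -0.11, the lowest of all lists, with 26 of 27 within 2-fold. It was 0.06 without P61S array 2 and -0.25 with that array as the sole P61S sample, so the sign rests on 1 array. Ccnb2, a cyclin of mitosis, read -1.14, -1.20 and -1.12 with P61S and -1.41 and -1.47 with wild type (difference 0.28, SE 0.115, unadjusted p = 0.0526), the reverse of the list. Cenpf, a kinetochore protein, read -2.60, -2.96 and -2.57 with P61S and -2.57 and -2.56 with wild type, and only P61S array 2 was low. A second, dimmer Cenpf probe gave -0.02 (SE 0.243), and on it wild type array 1 was the lowest, at -4.60, beside -4.52 on P61S array 2.

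Metabolic and stress lists lay on both sides of 0. Glycolysis and hypoxia genes had the highest median, 0.09 (25 of 29 within 2-fold), with 0.17 against wild type array 1 and 0.11 against wild type array 2. In that list the arrays of 2 genes did not overlap, both higher with P61S, among them the glycolytic enzyme gene Gpi at 0.14 (SE 0.129). Respiratory chain subunits had a median of 0.04 (29 of 30), cholesterol synthesis genes of -0.03 (23 of 24) and endoplasmic reticulum stress genes of -0.08 (19 of 22). Ddit3, the stress transcription factor CHOP, read 2.17 on each P61S array and 2.03 and 1.65 with wild type (difference 0.33, SE 0.148, unadjusted p = 0.0662), and Pdia4, a protein-folding enzyme, read -1.71, -1.56 and -1.71 with P61S and -1.05 and -1.43 with wild type (difference -0.39, SE 0.316). Members of this list thus lay on both sides. Housekeeping genes had a median of -0.06, with 22 of 22 within 2-fold.

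Immune signalling lists held several of the genes with the smallest p. Of prostanoid and leukotriene enzymes and receptors 22 of 24 lay within 2-fold (median 0.05), with 6 genes higher and 2 lower by non-overlapping arrays and 3 higher and 0 lower at an unadjusted p under 0.05. Of interferon-induced genes 31 of 34 did (median -0.05, against wild type array 2 alone -0.21), and of inflammatory mediators 21 of 24 (median -0.03), where 6 genes were lower and 0 higher by non-overlapping arrays. These members had been seen in earlier results of the same arrays, and 0 of them passed the test over all probes.

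**Figure D5:**
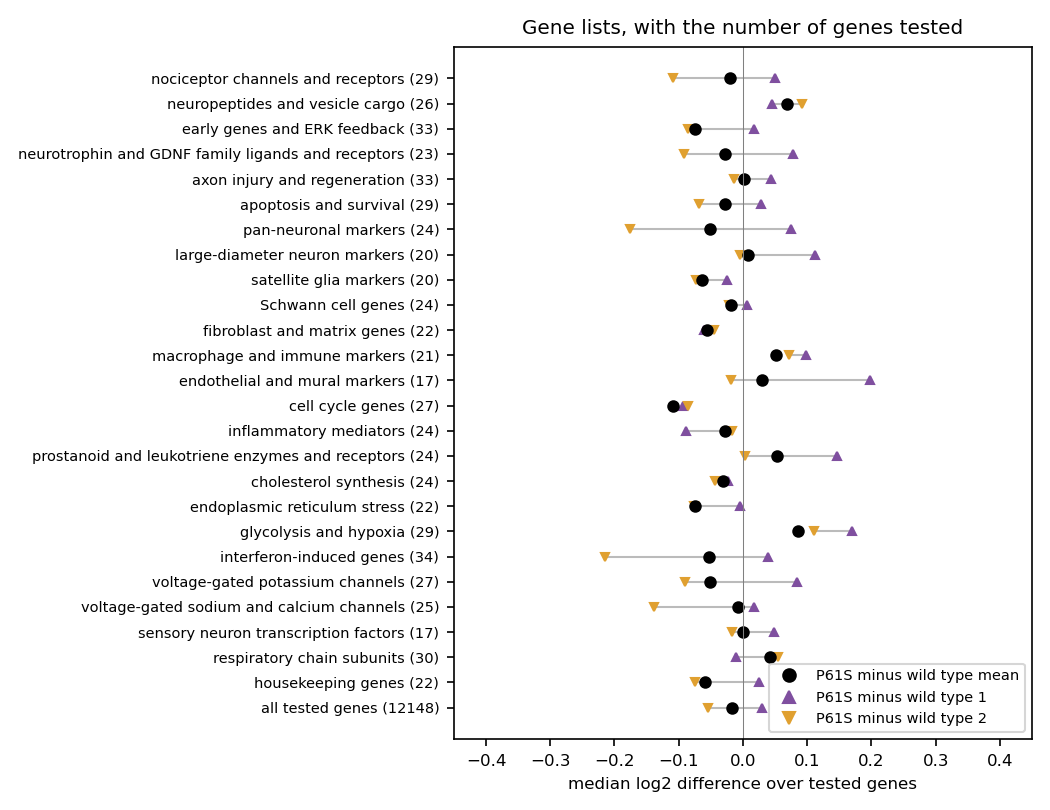
Median log2 difference (x axis) over the tested genes of each of 25 lists and over all tested genes (y axis, number of genes in brackets), for P61S minus the wild type mean (circles), minus wild type array 1 (triangles up) and minus wild type array 2 (triangles down). The circles lie between -0.11 and 0.09, and for most lists the triangles lie on opposite sides of 0.

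The genes with the smallest p were mostly dim. None passed the test, and all were taken from genes whose arrays did not overlap, so that separation is part of their choice. With normexp and quantile normalization 6 of the 10 on the higher side and 10 of the 10 on the lower side moved by over 1.5 times, and their log2 differences then ran from 0.14 to 0.62 and from -0.84 to -0.24, with 0 past 2-fold. Ptger3, a prostaglandin E2 receptor, read -6.23, -6.03 and -6.41 with P61S and -7.08 and -7.03 with wild type. All 3 P61S arrays were higher, by 1.84-fold on average (log2 difference 0.88, SE 0.154, limma unadjusted p = 0.00121). The difference was 0.90 against wild type array 1 and 0.85 against wild type array 2. Oas2, an interferon-induced synthetase, read -5.43, -5.43 and -5.50 with P61S and -6.04 and -6.02 with wild type (difference 0.58, SE 0.130). Stfa2l1, a stefin-like protease inhibitor, differed by 0.62 (SE 0.135) and Alox5, the 5-lipoxygenase that starts leukotriene synthesis, by 0.52 (SE 0.140). Eras, a Ras-like protein, read -3.35, -6.58 and -6.85 with P61S and -7.75 and -7.35 with wild type, so its difference of 1.71 (SE 0.452) rests mostly on P61S array 1, and it was 0.62 with normexp. That of Ptger3 was 0.37 with normexp.

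Of the 10 genes on the higher side, Grik1 and Rabl6 had signals near the 75th percentile of the arrays. Grik1, a kainate receptor subunit, read -0.10, -0.07 and -0.05 with P61S and -0.38 and -0.60 with wild type, a difference of 0.42 (SE 0.125, 95% interval 0.12 to 0.73) within 2-fold. Its second probe gave 0.20 (SE 0.236), with wild type array 1 above the P61S arrays. Rabl6, a Ras-related GTPase, read 0.36, 0.51 and 0.39 with P61S and 0.11 and 0.04 with wild type, a difference of 0.37 (SE 0.112). Rflna, a regulator of actin-binding filamins, gave 0.44 (SE 0.125) on its brightest probe and -0.05 (SE 0.361) on another. Pzp and Tmem63c differed by 0.36 and 0.48.

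On the lower side 4 of the 10 genes were well above background on all 5 arrays. They were Bpifb9a, at -0.85 (SE 0.139), and the olfactory receptor gene Or51e1, at -0.62 (SE 0.141), with the lectin-like gene Clec2g, at -0.45 (SE 0.116), and Or4c122, at -0.96 (SE 0.260). Asic2, an acid-sensing channel, read -7.42, -7.41 and -7.76 with P61S and -6.68 and -6.89 with wild type (difference -0.71, SE 0.169), but just 2 of its 3 P61S readings were well above background. Neurl1b, a ubiquitin ligase of Notch ligands, was so on 2 P61S arrays (difference -1.30, SE 0.216, and -0.25 with normexp). Or6d14 and Or5h27, further olfactory receptor genes, were so on 1, and Or10x1b on 2. Part of each of these differences was read near background.

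Of the 71 genes past 2-fold, 34 were higher and 37 lower with P61S, and 67 lay in the dimmest class when genes were divided into 5 equal classes by signal. In 47 of them the difference did not pass 2-fold against 1 of the wild type arrays. Some rested on single arrays. Nav2, a neuron navigator gene, read -4.28, 0.01 and -4.19 with P61S and -4.87 and -3.48 with wild type, and Krt18, a keratin, read -6.12, -2.97 and -6.10 with P61S and -6.21 and -6.43 with wild type. In both P61S array 2 was high and the other P61S arrays were not.

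Few probes were measured in 1 group only. Of the tested probes 21800 were well above background on all 5 arrays. Another 10 were so with P61S throughout but never with wild type, and 23 with wild type throughout but never with P61S. For these only a lower bound of the fold can be given, the mean of the bright group over the lowest signal well above background on each array of the dim group, or the dim probe's own signal where that was higher. Tnfsf4, the gene of the OX40 ligand of T cell stimulation, read -8.88, -9.15 and -8.77 with P61S and -6.78 and -4.84 with wild type, which makes it at least 5.17-fold higher with wild type and at least 2.64-fold without wild type array 2. With normexp and quantile normalization its log2 difference was -0.84, which is below that bound in size. It was well above background on 0 P61S/R100E arrays as well. Acss3, an acyl-CoA synthetase, was at least 2.13-fold higher with wild type. Or11g1 and Or12j2 had bounds of 1.95-fold and 1.58-fold, and neither had a bound above 1 without wild type array 2. The largest bounds belonged to probes without a gene name, at least 9.58-fold higher with wild type, and 9.26-fold and 8.90-fold higher with P61S. With 1 array left out their lowest bounds were 6.54-fold, 3.34-fold and 8.13-fold in that order. The probe at 9.26-fold read -5.69, -7.34 and 0.20 on P61S arrays 1 to 3. Another unnamed probe was at least 4.29-fold higher with wild type, and 3.26-fold at the lowest with 1 array left out. It had the smallest adjusted p of all tested probes (limma, 0.104). It was the probe that passed 0.05 with quantile normalization and with centring on the median.

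On the P61S side the named genes of this kind were Them7, Art4 and Prss27. Them7, a thioesterase family member, read -8.42, -7.47 and -3.82 with P61S and -8.94 and -9.97 with wild type (at least 2.76-fold, and 1.24-fold without P61S array 3). With normexp its log2 difference was 0.53. Art4, a blood group protein, had a bound of 2.16-fold with P61S, and of 1.52-fold at the lowest with 1 array left out. Its arrays overlapped, at -8.04, -6.74 and -6.00 with P61S and -8.61 and -7.38 with wild type. The 95% interval of its log2 difference was -0.49 to 2.72, and with normexp the difference was 0.23. Prss27, a serine protease, was at least 1.41-fold higher on a dim probe, and 1.01-fold at the lowest with 1 array left out. Its brightest probe gave -0.14 (SE 0.164) and lay within 2-fold, so its probes disagree.

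At the other end stood genes whose 5 arrays coincided. The 10 with the smallest SD over the arrays were chosen for it, so their values are a description. Cdipt, which makes phosphatidylinositol, read 2.62, 2.63 and 2.62 with P61S and 2.64 and 2.63 with wild type. Ndufa10, a subunit of respiratory complex I, read 1.36, 1.34 and 1.35 with P61S and 1.36 and 1.36 with wild type, and Atp6v1f, a subunit of the vacuolar proton pump, differed by 0.01 (SE 0.119). The largest absolute difference among the 10 was 0.01. Ccng2, a cyclin-like gene of this group, differed by 0.01 on its brightest probe and by -0.39 (SE 0.340) on another, on which wild type array 2 was the high array.

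The other contrasts of the series share these arrays, and their values are given side by side. P61S/R100E minus P61S had a median absolute difference of 0.10 over probes, with 20676 probes within 2-fold, and P61S/R100E minus wild type one of 0.14, with 19436 probes. P61S minus wild type stood at 0.11 and 19603 probes. Probes at an unadjusted p under 0.05 (limma) numbered 582, 833 and 259 in that order. The groups differ in their number of samples, and no test of the difference between these counts was made.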

How the data were processed

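Labelled RNA of the cultures was read on one-colour Agilent arrays. The authors deposited, per the file headers, background-subtracted spot intensity (Agilent Feature Extraction 10.7.3.1, scan protocol GE1_107_Sep09), on an array design built on rn4. A deposited table of log2 values, made by the authors and not normalized between arrays, was an alternative. Here log2 signals were averaged over a probe's spots, without outlier spots, and the 75th percentile of the array was subtracted. Symbols came from a GRCr8 table by accession (17998 of 30367 probes), so no coordinates are given.

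limma 3.58.1 in R 4.3.3 fitted 3 group means, with 4 degrees of freedom left for the residuals and 2.1 from the prior, and Benjamini-Hochberg adjustment over all tested probes. The plan was to fit 8 separate arrays. P61S arrays 1 and 3 were averaged after the data were seen, and the fits with 8 separate arrays are alternatives added then. Normexp used the median spot signal. Scripts were tested on simulated data.

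The comparison, the gene lists and the fixed genes were chosen with earlier results of these data known. Named were the 10 genes of smallest p per direction among genes with non-overlapping arrays, the fixed genes, each list's largest non-overlapping difference per direction, up to 10 genes measured in 1 group only and the 10 steadiest genes, and other names were chosen after their values were seen. Some of these are not reported here. Marker genes that a list shares with another were counted in both. Python 3.11.15, pandas 2.3.3 and matplotlib 3.10.9 made tables and figures.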

Additional observations from a re-analysis of the deposited data

How the results depend on the processing

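The count of probes past an adjusted p of 0.05 was 0 with the main settings. It was 1 with quantile normalization and 1 with centring on the median, the same probe without a gene name in both, and 0 to 16 when single arrays were left out, with 16 only without wild type array 1, where wild type array 2 stands alone and is assumed to vary like the other samples. It was 9 with P61S array 2 as the sole P61S sample. Probes at an unadjusted p under 0.05 numbered 259 with the main settings, 576 with quantile normalization, 571 without a filter on dim probes, 489 with 8 arrays as separate samples, 213 to 3213 with single arrays left out (3213 without wild type array 1) and 683 with P61S array 2 alone. Equivalence within 2-fold held for 22768 probes with normexp and quantile normalization, for 16602 to 19703 probes with single arrays left out, for 12304 at a margin of 1.5-fold and for 0 at 1.2-fold. It held for 18765 probes (79.6%) when only the P61S and wild type arrays were fitted. Without a filter on dim probes it held for 19346 of 30367 (63.7%). The median absolute difference ran from 0.10 to 0.21. The distance between groups less that within groups was -0.12 to 0.11 with single arrays left out, and 0.11 without wild type array 1, with exact permutation p-values of 0.333 or above that could not pass a threshold.

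With the replicate block, fitted on 8 arrays as separate samples, limma called 0 probes, 302 at an unadjusted p under 0.05 and 20116 within 2-fold. Residuals of same-numbered P61S and wild type arrays correlated at 0.10 and 0.17, and those of P61S array 3 and wild type array 1 at 0.11. Same-numbered P61S/R100E and wild type arrays correlated at -0.16 and -0.20. Only 2 numbers are shared with wild type, and the numbers do not establish a pairing. Of 2428 alternative values of 117 named genes, 2293 moved by less than the replicate spread and 135 by more, and none changed its call. Of 49 genes over 1.2-fold the sign changed in 2, Il24 and Bdkrb2. Of 525 list medians 11 moved by more than the spread. Dim signals limit the precision.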
